A study of Mus musculus with 4 samples.

Results

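The genes described here are 10 steroid dehydrogenases and reductases of mouse liver: Hsd3b5, Hsd3b3 and Hsd3b7, Hsd11b1, Hsd17b2 and Hsd17b6, Akr1c6, Akr1c14 and Akr1c18, and Akr1d1. They were chosen by name, and each was read from its 1 probe set annotated with that symbol alone, out of 22180 genes measured. Liver RNA of C57BL/6 mice older than 2 months was combined by group and measured on 4 Affymetrix arrays, 1 array per group. The groups were 6 mice lacking Chrebp fed a diet of 70% fructose for 2 weeks, 7 wild-type (WT) mice fed that diet for 3 weeks, 4 WT mice fed it for 2 weeks, and 7 WT mice on regular chow. The series design sets the Chrebp-null pool against the WT pool at 2 weeks, and the 3-week WT pool against chow. ChREBP, encoded by Mlxipl, is a sugar-responsive transcription factor of the liver. The sources used here do not give how the null allele was made or whether other tissues lack the gene. Every pool held males and females, in proportions not given.

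Hydroxysteroid dehydrogenases interconvert alcohol and ketone groups on the steroid skeleton, and so switch hormones between active and inactive forms. The aldo-keto reductases of the AKR1C and AKR1D groups reduce ketones and double bonds of the same molecules. In the liver these enzymes clear androgens, oestrogens, progesterone and glucocorticoids, and some act on the intermediates of bile acid synthesis. Several are made at different levels in male and female mouse liver, a difference that depends on the pattern of growth hormone release.

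Values are levels after RMA, a method that corrects, normalizes and summarises array probes, on a log2 scale, so a difference of 1 is a 2-fold ratio. Levels of different genes come from different probes and are not compared. With 1 array per group there is no replicate, no error and no test, and precision is limited by having 4 arrays in all. A level counted as low when it lay under a floor of 3.52, the median of the mean levels of all genes. A difference was counted when it was at least 2-fold and the higher array reached the floor. Each of the 10 genes met that floor condition in every comparison given here. Pooled liver RNA cannot tell fewer cells of a type from less RNA per cell. Array medians lay between 3.11 and 3.17, and arrays correlated with r from 0.974 to 0.982 over 41345 probe sets. Mlxipl, the targeted gene, read 8.09 in the Chrebp-null pool and 9.64, 9.83 and 9.25 in the WT pools at 3 weeks, at 2 weeks and on chow, the direction of the genotype label. The sources used here do not say which part of the gene its probes cover.

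Hsd3b5 was far lower in the Chrebp-null pool and Akr1c18 was higher, while the other 8 genes differed from the 2-week WT pool by less than 2-fold. In the Chrebp-null comparison 1 of the 10 genes was thus at least 2-fold lower, where 1.43% of the 11631 genes assessed were, and 1 was at least 2-fold higher, where 2.03% were. The median difference of the 10 genes was -0.38, against 0.10 over all genes assessed, and 7 of the 10 lay below 0. In the fructose comparison, WT at 3 weeks over chow, Akr1c18 was the 1 gene at least 2-fold higher, where 0.64% of 11717 genes were. None of the 10 was at least 2-fold lower there, where 1.16% of genes were. The median of the 10 was 0.04, against -0.05 over all genes assessed.

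The same counts for the other pairs of arrays, which share arrays with these comparisons, named no gene beyond Hsd3b5, Akr1c18 and Hsd17b2. Set against WT at 3 weeks, the null pool was at least 2-fold lower for 2 of the 10 genes, Hsd3b5 and Akr1c18 (1.95% of 11772 genes), and higher for none (3.38%). Over chow the null pool was at least 2-fold lower for 2, Hsd3b5 and Hsd17b2 (1.43% of 11720 genes), and higher for 1, Akr1c18 (1.66%). WT at 3 weeks over WT at 2 weeks had Akr1c18 as the 1 gene higher (1.27% of 11648 genes) and none lower (1.1%). WT at 2 weeks over chow had none higher (0.783% of 11622 genes) and none lower (1.41%).

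**Figure D1:**
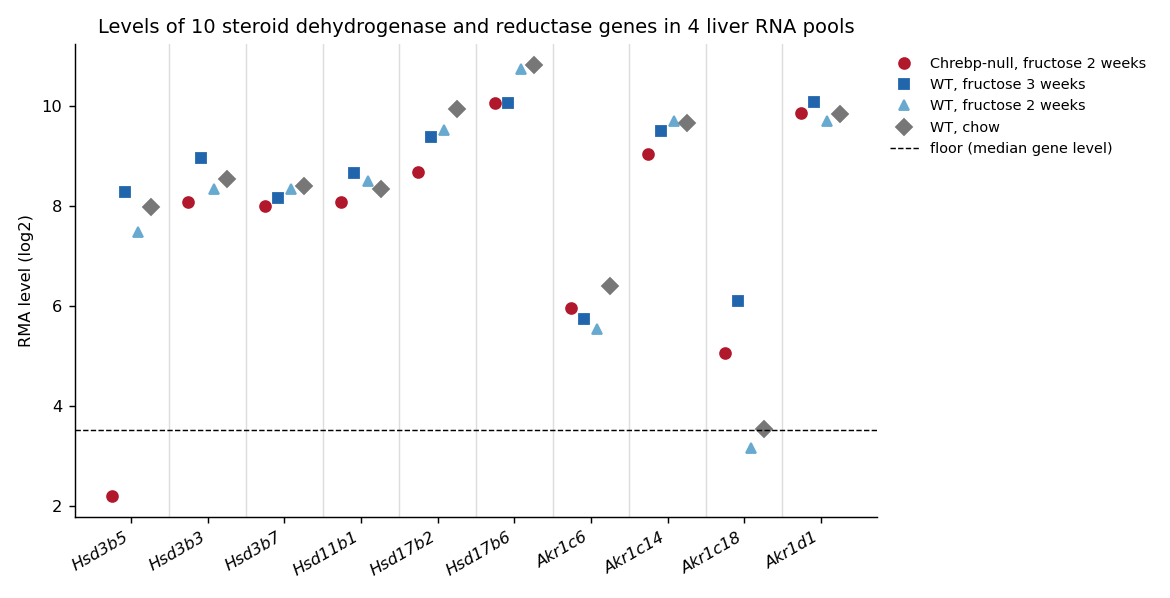
RMA levels (log2, vertical axis) of the 10 genes in the 4 liver RNA pools, 1 point per array; the dashed line is the floor of 3.52. Hsd3b5 in the Chrebp-null pool (2.20) and Akr1c18 in the 2-week WT pool (3.16) are the points under the floor, and levels of different genes are not comparable.

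Hsd3b5 and Hsd3b3 are neighbours in a cluster of related genes on mouse chromosome 3, with Hsd3b2 between them in the GRCm38.p6 annotation. Their promoter windows, 250 bases before to 50 after an annotated start, are shown because these near relatives read so differently in the Chrebp-null pool. The sequences are from RefSeq, build GRCm38.p6, minus strand, 5′ to 3′, at chr3:98645485-98645784 for Hsd3b5 and chr3:98762361-98762660 for Hsd3b3, which has 2 annotated windows and is shown by the one with more bases identical to Hsd3b5. Capitals mark runs of at least 10 bases that are identical in the alignment of the pair.
Hsd3b5: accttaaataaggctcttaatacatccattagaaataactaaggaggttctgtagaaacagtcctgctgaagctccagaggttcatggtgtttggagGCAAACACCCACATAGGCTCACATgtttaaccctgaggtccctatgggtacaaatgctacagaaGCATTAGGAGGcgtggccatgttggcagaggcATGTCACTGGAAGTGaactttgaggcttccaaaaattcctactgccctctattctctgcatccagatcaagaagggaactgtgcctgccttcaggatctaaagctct
Hsd3b3: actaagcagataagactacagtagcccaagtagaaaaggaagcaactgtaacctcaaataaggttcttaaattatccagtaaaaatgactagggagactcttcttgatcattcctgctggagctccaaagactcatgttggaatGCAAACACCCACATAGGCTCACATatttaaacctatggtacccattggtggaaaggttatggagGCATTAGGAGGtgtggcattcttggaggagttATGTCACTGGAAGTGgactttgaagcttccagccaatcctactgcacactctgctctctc

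The pair shared 192 identical bases in 250 aligned positions, and 50 bases lay in such runs. Hsd3b7, whose gene lies on chromosome 7, shared 143 identical bases with Hsd3b5 in the same alignment and had no run of that length. The Akr1c6, Akr1c14 and Akr1c18 windows, all on chromosome 13, had no such run in any pair. Of the 10 genes, 9 had a window. These were searched on both strands for 2 motifs. The STAT5 motif TTCNNNGAA, bound by the factors that carry the growth hormone signal, is held by 8.3% of 32851 windows of that length. Among the 9 genes it was found in the window of Hsd3b7, as TTCCTGGAA, with its first base at position -21 from the start. The E box CACGTG, the core of the element that ChREBP binds, is held by 7.15% of windows and was found in none of those of the 9 genes.

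Among the enzymes named for the oxidation of the steroid 3-beta-hydroxyl group, Hsd3b5 is a male-specific liver form that works mainly as a reductase of active androgens. It read 2.20 in the Chrebp-null pool, and 8.27, 7.47 and 7.99 in the WT pools at 3 weeks, at 2 weeks and on chow. The WT pools spanned 0.80, and the null level was under the floor. With that level set at the floor, Hsd3b5 in the null pool was lower than in the WT pool at 2 weeks by at least 15.5-fold (log2 difference -3.95, and -5.27 as read). Only 2 of the 11631 genes assessed had a lower value as read. Against the other WT pools the bound was 26.9-fold at 3 weeks and 22.1-fold on chow, with the same null array in each. In WT mice fructose went with no common direction. Hsd3b5 stood 0.28 higher at 3 weeks than on chow, but -0.51 at 2 weeks over chow.

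Hsd3b5 also shares probe sets with the related genes Hsd3b4 and Gm10681. These 2 probe sets hold identical values on every array, so they are 1 measurement. They read 3.39 in the null pool, and 4.31, 3.84 and 4.30 in the WT pools at 3 weeks, at 2 weeks and on chow. The null pool was again the lowest, under the floor, at -0.45 against WT at 2 weeks. How far the probes of these close relatives separate them is not known here, which makes single-gene values in the family uncertain.

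Hsd3b3, a form made in liver and kidney, lay within 2-fold across the null and WT pools. It read 8.08 in the Chrebp-null pool, and 8.96, 8.34 and 8.54 in the WT pools at 3 weeks, at 2 weeks and on chow. The null pool was lowest by -0.26 against WT at 2 weeks, a gap smaller than the 0.62 between the WT pools at 3 and 2 weeks. Hsd3b2, which lies between Hsd3b5 and Hsd3b3, read 6.21 in the null pool, 6.83 in WT at 3 weeks and 6.85 in WT at 2 weeks, against 5.93 on chow. It was the steroid gene outside the 10 with the largest value in the fructose comparison among the listed hydroxysteroid dehydrogenases (0.91), and stood at -0.64 in the null comparison. Hsd3b1 and Hsd3b6 read below the floor on all 4 arrays, from 2.03 to 2.27.

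Hsd3b7, which oxidises sterols early in bile acid synthesis, read 8.0 in the null pool, and 8.15, 8.34 and 8.41 in the WT pools at 3 weeks, at 2 weeks and on chow. The whole range was 0.41. Akr1d1, the reductase of a later step of the same pathway, read 9.85, 10.08, 9.71 and 9.85 in that order, a range of 0.38. It was the least variable of the 10. Among 10 other bile acid synthesis genes, 1 was at least 2-fold lower in the null comparison (1.43% of all genes assessed) and none was higher (2.03%). That gene was Cyp8b1, the hydroxylase that sets the share of cholic acid, with 5.77 in the null pool against 7.98 in WT at 2 weeks, a difference of -2.21. In the fructose comparison all 10 lay below 0 with a median of -0.32, against -0.05 over all genes assessed. None passed 2-fold there, where 0.64% of genes were higher and 1.16% lower. At 2 weeks over chow 4 of them lay above 0, with a median of -0.06 against -0.04 over all genes. There 1 gene was lower by 2-fold or more (1.41% of all genes).

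Hsd11b1 regenerates active glucocorticoid from its inactive ketone inside liver cells. Its level was 8.08 in the Chrebp-null pool, and 8.65, 8.49 and 8.34 in the WT pools at 3 weeks, at 2 weeks and on chow. The null pool was lowest, at -0.41 against WT at 2 weeks, and the WT pools spanned 0.31. Nr3c1, the glucocorticoid receptor, stood at -0.22 in the null comparison and 0.06 in the fructose comparison. Of 10 glucocorticoid-responsive genes none passed 2-fold in either comparison. Over all genes assessed 2.03% were higher and 1.43% lower in the null comparison, and 0.64% and 1.16% in the fructose comparison. The values nearest to 2-fold in the null comparison were 0.98 for the metallothionein gene Mt2, -0.88 for Zbtb16 and -0.79 for Tsc22d3.

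Hsd17b2, which oxidises oestradiol and testosterone to weaker hormones, was lowest in the Chrebp-null pool and highest on chow. It read 8.69 in the null pool, and 9.38, 9.52 and 9.94 in the WT pools at 3 weeks, at 2 weeks and on chow. The null pool lay -0.83 from WT at 2 weeks, under 2-fold, and -0.69 from the lowest WT pool, while the WT pools spanned 0.56. Over chow the null pool was 2.39-fold lower (log2 difference -1.25). Hsd3b5 was the other of the 10 to be lower by 2-fold there. The WT fructose pools stood at -0.56 and -0.43 over chow at 3 and 2 weeks, with the chow array in both.

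Hsd17b6, an oxidoreductase that acts on androgen metabolites, split the pools in pairs. It read 10.07 in the Chrebp-null pool and 10.07 in WT at 3 weeks, against 10.75 in WT at 2 weeks and 10.81 on chow. The null comparison gave -0.68 and the fructose comparison -0.75. The same gap of -0.69 separated the WT pools at 3 and 2 weeks, so the null value against WT at 3 weeks was 0.0018.

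Akr1c18 encodes a reductase that inactivates progesterone, and its level varied more among WT pools than any other of the 10. It read 5.05 in the Chrebp-null pool, 6.10 in WT at 3 weeks, 3.16 in WT at 2 weeks and 3.53 on chow. The null and 3-week WT pools were high, the chow pool lay at the floor and the 2-week WT pool below it. The fructose comparison gave at least 5.95-fold, since the chow level lay at the floor (log2 difference 2.57 as read), and 4 of the 11717 genes assessed had a higher value as read. The null comparison gave at least 2.89-fold once the 2-week WT level was raised to the floor (log2 1.53, and 1.89 as read). Set against WT at 3 weeks, the null pool was instead 2.07-fold lower (log2 difference -1.05). The WT pools at 3 and 2 weeks differed by at least 5.97-fold, and 9 of the 11648 genes assessed had a higher value as read. At 2 weeks over chow Akr1c18 stood at -0.36 as read and at -0.0044 with the 2-week level set at the floor. Both levels lay at or under the floor, so they give no order, and the higher level at 3 weeks was not seen at 2 weeks.

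**Figure D2:**
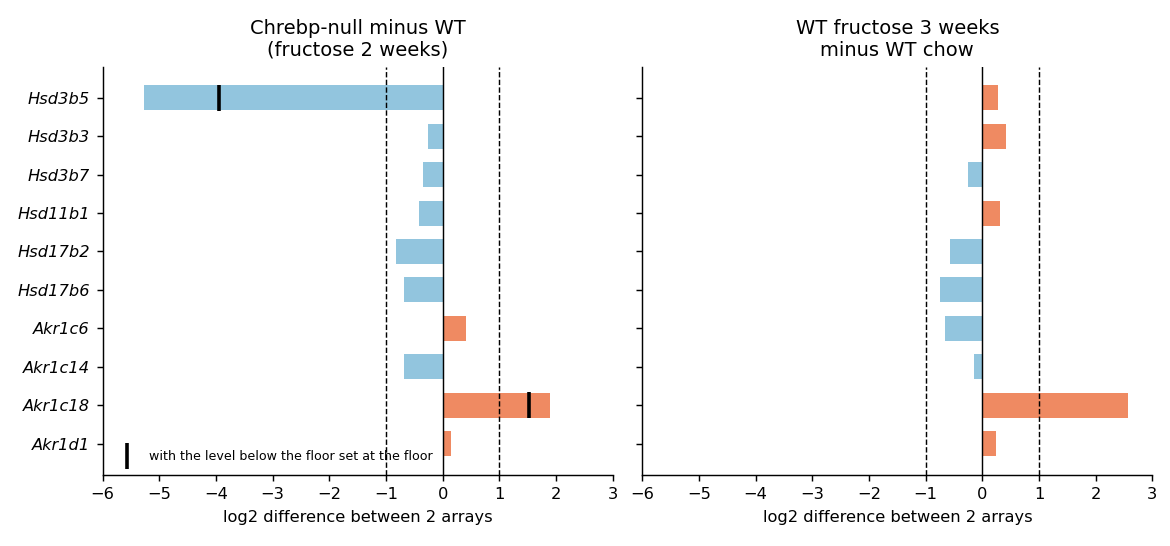
Log2 differences of the 10 genes in the Chrebp-null comparison (left) and the fructose comparison (right); bars start at 0, dashed lines mark 2-fold, and black ticks give the difference with a level below the floor set at the floor. Hsd3b5 reaches -5.27 on the left, and Akr1c18 passes 2-fold in both panels.

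Akr1c14, which reduces dihydrotestosterone and other ketosteroids, varied little among the WT pools and was lowest in the Chrebp-null pool, by less than 2-fold. It read 9.03 in the null pool, and 9.51, 9.71 and 9.66 in the WT pools at 3 weeks, at 2 weeks and on chow. The null pool was -0.48 from the lowest WT pool, while the WT pools spanned 0.20. Akr1c6, a reductase that forms testosterone from androstenedione, was highest on chow. It read 5.95 in the null pool, 5.74 in WT at 3 weeks, 5.54 in WT at 2 weeks, and 6.40 on chow. The WT fructose pools thus stood at -0.67 and -0.86 over chow, and the null pool at 0.41 over WT at 2 weeks.

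Other genes of the AKR1C cluster differed less than Akr1c18. Akr1c12 and Akr1c20 stood at -0.24 and -0.22 in the null comparison, and at -0.30 and 0.28 in the fructose comparison. Akr1c19 read 3.77 in the null pool, and 2.98, 3.59 and 3.75 in the WT pools at 3 weeks, at 2 weeks and on chow. It stood at -0.77 in the fructose comparison, the value farthest from 0 among these other cluster genes, and at -0.22 with the 3-week level set at the floor. Akr1c21 read below the floor on every array.

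Set against all WT pools together, the Chrebp-null pool was the lowest of the 4 for 6 of the 10 genes: Hsd3b5, Hsd3b3, Hsd3b7, Hsd11b1, Hsd17b2 and Akr1c14. Over the 12194 genes with any array at the floor this was so for 17.7%. The null pool was the highest for 0 of the 10, where it was so for 37.6% of genes. For Hsd3b5, Hsd17b2 and Akr1c14 the gap below the lowest WT pool was larger than the whole range of the WT pools, which held for 4.36% of genes. These comparisons share the null array, and the WT pools differ in diet, weeks and mice and are not replicates.

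Related genes outside the 10 were set beside the shares of all genes assessed. These were 2.03% at least 2-fold higher and 1.43% lower in the null comparison, and 0.64% and 1.16% in the fructose comparison. Of 9 other hydroxysteroid dehydrogenases assessed, 1 was at least 2-fold higher in the null comparison and none lower, with a median of 0.03, and none passed 2-fold in the fructose comparison. The 1 gene was Hsd17b7, which also works in cholesterol synthesis, with 9.43 in the null pool against 7.92 in WT at 2 weeks, a difference of 1.51. In the fructose comparison it stood at -0.41. Of 6 other AKR1C genes and reductases, Cbr3, a carbonyl reductase, was at least 2-fold higher in the null comparison. It read 5.28 in the null pool and 2.85, below the floor, in WT at 2 weeks, a difference of 1.76 with that level set at the floor. Cbr3 read 2.65 in WT at 3 weeks and 3.05 on chow, both under the floor, so it was not assessed in the fructose comparison. None of the 6 genes of the list assessed there passed 2-fold. Cyp17a1, a steroid hydroxylase that female mouse liver makes more of, read 8.71 in the null pool, 10.99 and 9.61 in the WT pools at 3 and 2 weeks, and 10.21 on chow.

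Low values in the Chrebp-null pool were common among other male-biased liver genes. Of 14 such genes assessed, 8 were lower by 2-fold or more in the null comparison (1.43% of all genes assessed). None was higher (2.03%), and the median was -1.09. The list was chosen with earlier results of these data known. Slco1a1, an organic anion transporter, stood at -5.55 with its null level set at the floor. Elovl3, a fatty acid elongase, stood at -3.92 and Cyp4a12a, a fatty acid hydroxylase, at -3.06. In the fructose comparison 1 of 15 was at least 2-fold higher (0.64% of all genes) and none lower (1.16%), with a median of 0.16. The higher one was Ugt2b38 at 1.02, or 0.78 with its chow level set at the floor. Of 13 female-biased genes assessed in the null comparison, 1 was higher (2.03%) and 3 were lower (1.43%), with a median of -0.01. Sult2a1, a steroid sulfotransferase, was higher by 2.05, and Cyp2b13 stood at -1.91. Sult2a1 read 6.72 in the null pool, and 7.57, 4.67 and 7.67 in the WT pools at 3 weeks, at 2 weeks and on chow, so the null pool lay above the low 2-week WT pool and below both others. Cyp2a4 stood at -1.38, and A1bg at -1.50 as read but -0.33 with its null level set at the floor. In the fructose comparison 2 of 16 female-biased genes were higher by 2-fold or more (0.64%) and 1 lower (1.16%), with a median of 0.04. Female-biased genes too read low in the null pool against the other WT pools. Against WT at 3 weeks, the null pool was lower by 2-fold or more for 8 of 16 female-biased genes (1.95% of all genes). It was higher for 1 (3.38%), with a median of -0.98. Beside these, 11 of 15 male-biased genes were lower, with a median of -1.54. Over chow, where 1.43% of all genes were lower, 7 of 15 female-biased genes were, with a median of -0.95. Of 14 male-biased genes 10 were, with a median of -1.47. The 2-week WT pool was itself low over chow for both lists. There 6 of 15 female-biased genes were lower by 2-fold or more, with a median of -0.45. Of 14 male-biased genes 3 were, with a median of -0.21. The share over all genes assessed was 1.41%, with a median of -0.04. WT at 3 weeks over 2 weeks gave medians of 0.52 for male-biased and 0.55 for female-biased genes (0.42 with levels raised to the floor). Of 4 genes of steroid receptors and carriers assessed, none passed 2-fold in either comparison.

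**Figure D3:**
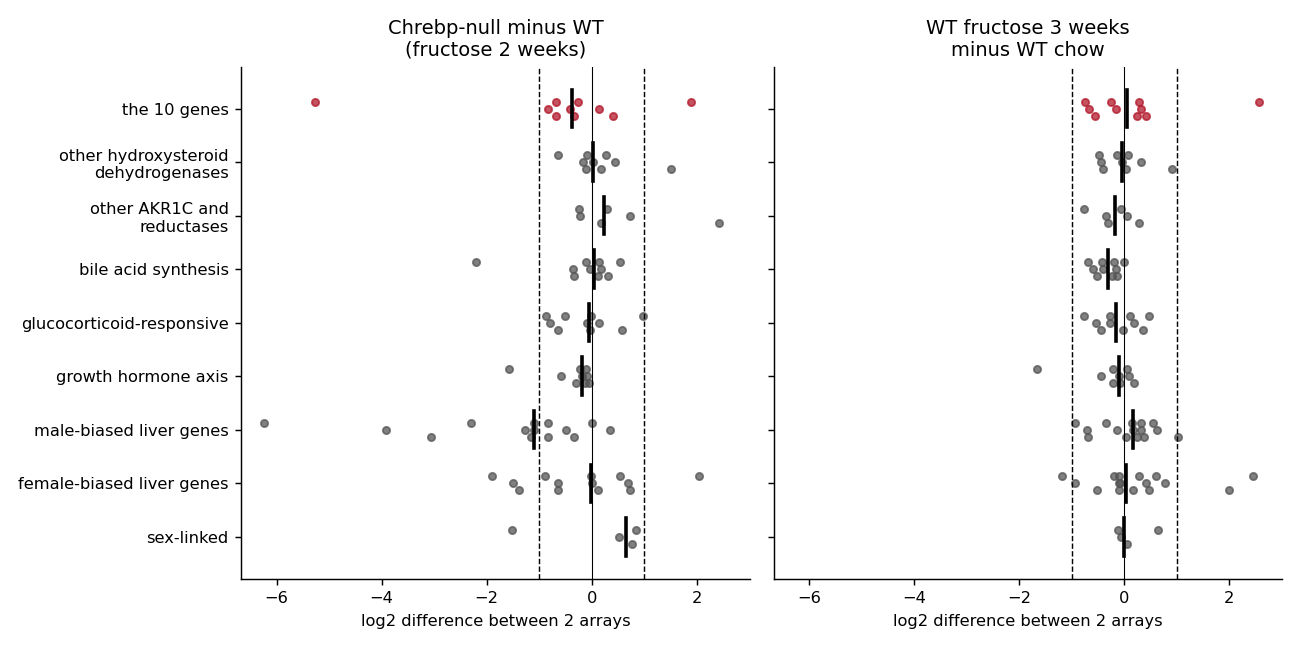
Log2 differences of single genes (points) in the 10 genes and in related gene lists, with each list's median as a black bar and 2-fold as dashed lines, for the Chrebp-null comparison (left) and the fructose comparison (right). Male-biased liver genes have a median of -1.09 on the left and 0.16 on the right.

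Sex-linked genes also differed between these pools. Xist, made from the inactive X chromosome of females, read 7.04 in the Chrebp-null pool, and 8.77, 8.56 and 8.84 in the WT pools at 3 weeks, at 2 weeks and on chow. The Y-linked gene Eif2s3y read 7.34 in the null pool, and 6.00, 6.51 and 6.12 in the WT pools in that order. Kdm5d and Uty, also Y-linked, stood at 0.76 and 0.53 in the null comparison. Xist was thus lowest and these Y-linked genes highest in the pool where the male-specific Hsd3b5 was lowest. The part of the sexes' shares in the values of the 10 genes was not tested.

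Genes of the growth hormone axis lay within 2-fold in both comparisons, apart from Bcl6. This repressor gene, which growth hormone controls, read 5.70 in the null pool, 5.45 in WT at 3 weeks, 7.28 in WT at 2 weeks and 7.11 on chow. It was at least 2-fold lower in both comparisons of the series, at -1.58 in the null comparison and -1.67 in the fructose comparison. It was the 1 of 9 genes to pass 2-fold in each, where 1.43% and 1.16% of all genes assessed were lower. Ghr, the growth hormone receptor, stood at -0.58 and Stat5b at -0.18 in the null comparison. In the fructose comparison Ghr stood at 0.05 and Stat5b at -0.44. All 9 genes lay below 0 in the null comparison, with a median of -0.18 against 0.10 over all genes assessed. Over chow the null pool was at least 2-fold lower for 2 of the 9, Bcl6 and Igfals, where 1.43% of genes were. Igfals read 6.30 in the null pool, 7.30 in WT at 3 weeks, 6.40 in WT at 2 weeks and 7.51 on chow.

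The 3 genes whose levels ranged by at least 1 over the arrays were set against 11270 other genes by the root mean square distance between log2 values centred over the 4 arrays. This describes 4 arrays of 1 table and carries no test. Distances used levels as read, including levels under the floor. The closest to Hsd3b5 were Slco1a1 at a distance of 0.35, Elovl3 at 0.66, Rgs16 at 0.84, Cyp2c69 at 0.91 and Cyp4a12a at 0.92. The null levels of Hsd3b5 (2.20) and Slco1a1 (2.83) lay under the floor, so these distances and their order are uncertain. Slco1a1, Elovl3 and Cyp4a12a are on the male-biased list. Rgs16 and Cyp2c69 are on neither sex-biased list, which does not show that they lack a sex bias. Rgs16, a regulator of G protein signalling, read 5.38 in the null pool, and 10.08, 10.43 and 9.10 in the WT pools at 3 weeks, at 2 weeks and on chow. Hsd17b2 had closer companions, with the cytochromes Cyp4f14 and Cyp2u1 at 0.085 and 0.090 and the proteoglycan gene Sdc4 at 0.097. Cyp2u1 is on the male-biased list too. Each of these was lowest in the null pool and highest on chow. Akr1c18 had none as close, but this distance is not scaled to a gene's range, which was 2.93 for Akr1c18 and 1.25 for Hsd17b2. The nearest to Akr1c18 was Slc16a5, a transporter gene, at 0.63. It read 10.25 in the null pool, 9.996 and 8.39 in the WT pools at 3 and 2 weeks, and 9.04 on chow. The third nearest was the sulfotransferase gene Sult2a5 at 0.65. In WT at 2 weeks the levels of Akr1c18 (3.16) and Sult2a5 (2.99) lay under the floor, which limits these distances too.

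**Figure D4:**
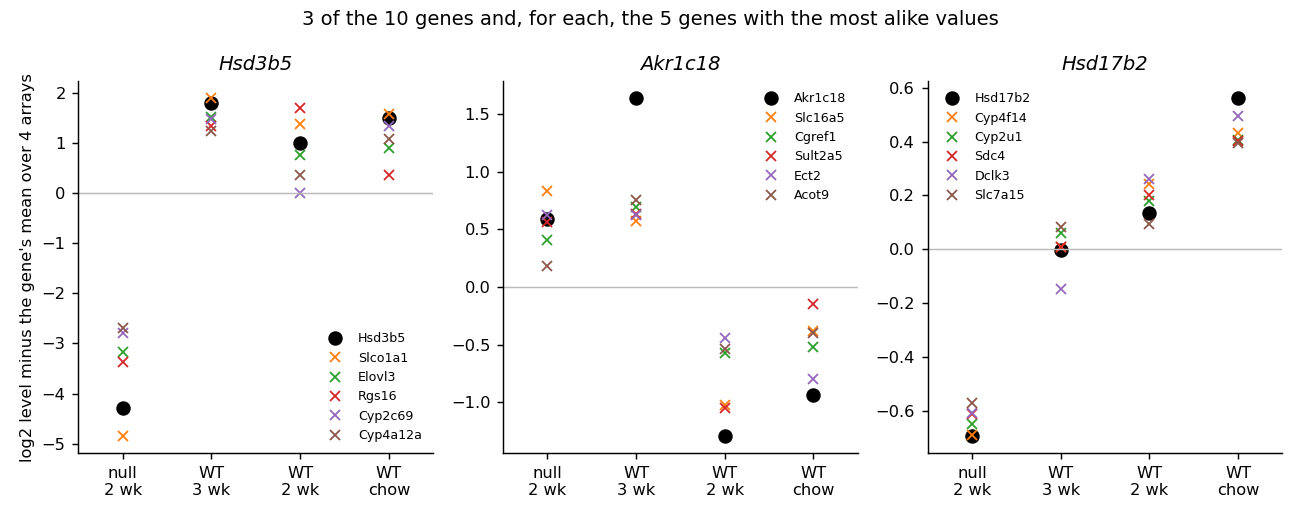
Log2 levels minus each gene's mean over the 4 arrays (vertical axis) in the 4 pools, for Hsd3b5, Akr1c18 and Hsd17b2 (filled circles) and the 5 genes nearest to each (crosses); the vertical scales differ between panels. The genes near Hsd3b5 are lowest in the null pool, and those near Akr1c18 are higher in the null and 3-week WT pools than in the other two.

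The tissue label was checked against marker genes. All 8 hepatocyte markers lay above the floor on every array, and their summed linear levels were 29601 in the Chrebp-null pool and 28417, 29695 and 28869 in the WT pools at 3 weeks, at 2 weeks and on chow. Markers with high readings weigh most in such a sum. Among the 8, Ass1 read 5.78 in the null pool and 4.54, 5.86 and 4.39 in the WT pools in that order, which the sums do not show. None of 6 markers of the adrenal cortex, a tissue that makes steroids, reached the floor on any array. Macrophage markers, 7 of 7 above the floor, summed to 1577 in the null pool, and 1123, 1308 and 1075 in the WT pools in that order. Among them Marco read 8.21 in the null pool and 4.95, 5.55 and 5.84 in the WT pools. Without Marco the other 6 summed to 1282 in the null pool and to 1092, 1261.5 and 1018 in the WT pools, so Marco held most of the gap to WT at 2 weeks. Cholangiocyte markers summed to 107 in the null pool and 70.7, 89.4 and 81.3 in the WT pools, with 2 or 3 of 5 at the floor on each array and Krt19 below it on all. Stellate markers, all 6 above the floor, summed to 1742 in the null pool and to 1569, 1704 and 1466 in the WT pools. Sinusoidal endothelium, also 6 of 6, summed to 1488 in the null pool and to 1817, 1710 and 1422 in the WT pools. Lymphocyte markers, 3 of 5 at the floor, summed to 68.2 in the null pool and to 81.1, 82.9 and 85.6 in the WT pools. No neutrophil or adipocyte marker reached the floor. The part of these cells in the values of the 10 genes was not tested.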

How the data were processed

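RNA of the livers of a group was combined, per the labels' protocols, and each group had 1 array. For 41345 probe sets the authors deposited log2 levels, made with affy and RMA per the submitters' processing notes. The sources used here give no versions, settings or genome build. RMA can understate large differences and differences of dim genes. Arrays hold no read depth.

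The platform annotation gave 1 symbol for 23521 probe sets, several for 1814 and none for 16010. Probe sets with 1 symbol were used, for 1082 genes the one with the highest mean, which left 22180 genes. All 10 genes matched the GRCm38.p6 gene table. Differences were computed as one array minus another, and no test was run. The named genes are the 10, Mlxipl, up to 4 genes of each list with the largest differences, and the 5 genes nearest to each of the 10 whose range was at least 1. Hsd3b1, Hsd3b6, Akr1c19, Akr1c21, Krt19, Marco and Ass1 were named after their values were seen. So was the comparison of the null pool with all WT pools chosen. The genes and lists were chosen with earlier results of these data known.

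The alternatives tried were dropping the floor, raising it to the 75 percentile of gene means, levels below the floor set at it, median centring, quantile normalization, removal of a lowess trend (fraction 0.3), the mean of all probe sets, cut-offs of 3-fold and 1.5-fold, and replacing the WT fructose array by the other one or by their mean. Promoter windows were aligned globally with free end gaps. Computations used Python 3.11.15, numpy 2.4.6, pandas 2.3.3, statsmodels 0.14.6 and Biopython 1.88.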

Additional observations from a re-analysis of the deposited data

How the results depend on the processing

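The counts changed with the WT fructose pool that was used. With the 2-week pool over chow, 0 of the 10 genes were at least 2-fold higher, since Akr1c18 then stood at -0.36 as read and at -0.0044 with its 2-week level set at the floor, which gives no order. With the null pool set against WT at 3 weeks, 0 were at least 2-fold higher and 2 lower, Hsd3b5 and Akr1c18, the second at -1.05. Against the mean of both WT fructose pools 0 were higher, with Akr1c18 at 0.42. With the floor at the 75 percentile 0 were higher in the null comparison, since Akr1c18 then lay under the floor. At 1.5-fold, 2 of the 10 were lower in the fructose comparison (Hsd17b6 and Akr1c6) and 4 in the null comparison (Hsd3b5, Hsd17b2, Hsd17b6 and Akr1c14). Hsd3b5 was at least 2-fold lower in the null comparison under every alternative run. Under median centring, quantile normalization and trend removal all 10 genes kept their sign in both comparisons. The counts of 6 and 3 genes with the null pool below all WT pools held under 5 alternatives added after seeing the data.

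Over all genes, 75 were higher and 136 lower in the fructose comparison, and 236 and 166 in the null comparison. Trend removal gave 93 and 105, and 140 and 225. Quantile normalization gave 181 and 180 in the null comparison, and WT at 3 weeks as its control 398 and 230. The floor at the 75 percentile gave 40 and 103, and 87 and 110. The mean of both WT fructose pools gave 38 and 77 in the fructose comparison. At 1.5-fold the counts were 418 and 826, and 1065 and 441, and at 3-fold 14 and 15, and 46 and 54. No paired analysis was possible because each group has 1 array. Dim levels limit Hsd3b5 in the null pool and Akr1c18 in the 2-week WT and chow pools to values at or under the floor.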
